A study of Homo sapiens with 30 samples.

Results

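The DNA replication and mitosis genes are 42 genes, of the 26255 in the RNA-seq table, whose products copy the genome or separate the copies. They were taken by name, with no use of their values: 18 act in DNA replication (the replication genes) and 24 in mitosis (the mitosis genes). All 42 were listed once and passed the filter of at least 1 FPKM in any of the 4 lines, which 12670 genes passed. FPKM counts sequenced fragments per length of transcript and per number of mapped fragments. The 4 lines were made from RWPE1, an immortalized line from normal human prostate epithelium, by retroviral transduction. The vector line carried both empty vectors, pQCXIH and pBabe-puro. The ERG line carried pQCXIH-ERG with empty pBabe-puro, the mAKT line carried empty pQCXIH with a myristoylated, constitutively active AKT in pBabe-puro, and the ERG/mAKT line carried ERG and mAKT together. ERG belongs to the ETS transcription factors and is expressed in many prostate tumours through a gene fusion, and AKT is the kinase that acts below PI3K. All 4 lines thus carry both vector backbones and come from 1 parental line. The H3K27me3 and ERK2 maps come from RWPE1 cells with pQCXIH alone, empty (vector) or with ERG, and H3K27me3 also from cells with ERG S96E, an ERG with a changed phosphorylation site. ERG was also mapped in VCaP cells, a prostate cancer line with a fusion of TMPRSS2 and ERG, which were treated with DMSO. Each line had 3 RNA-seq libraries, but the table gives 1 FPKM pooled over them. The differences below therefore carry no error between the libraries and were not tested here, and the depth of the libraries is unknown.

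DNA is copied once per cell cycle. CDC6 and CDT1 load the MCM helicase onto origins, the GINS complex helps to switch it on, PCNA clamps the polymerases to DNA, and RRM1, RRM2 and TYMS supply nucleotides. In mitosis, CDK1 with cyclin B drives entry, the Polo and Aurora kinases and the kinesins build the spindle, the BUB and TTK kinases delay exit until chromosomes attach, and CDC20 and UBE2C let the anaphase-promoting complex destroy cyclin B. Transcription of replication genes peaks around the start of S phase and depends on E2F sites. Transcription of mitosis genes peaks in G2 and M and depends on the CHR element and the CCAAT box. RNA from a culture is an average over cells at all stages, so a change in the share of cycling cells and a change in RNA per cycling cell cannot be told apart here.

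Promoter sequences from RefSeq (GRCh38.p14), from 250 bases before to 50 bases after each gene start, were found for 34 of the 42 genes, and each of the 34 matched GRCh37 exactly at 1 place near its gene. MCM4, MCM5, FOXM1, AURKA, TTK, UBE2C, TPX2 and BIRC5 were not in the promoter table. The 250 bases before the start of 5 members are given because they show the letters that separate the replication genes from the mitosis genes, and because KIF11, CDC20 and MKI67 return in the comparisons below. They lie at chr2:136634014-136634263 (minus strand, MCM6), chr20:32274192-32274441 (minus strand, E2F1), chr1:43824402-43824651 (plus strand, CDC20), chr10:94352637-94352886 (plus strand, KIF11) and chr10:129924688-129924937 (minus strand, MKI67) of GRCh37, upstream of the first exon. They are written in the direction of the gene, and capitals mark the motifs that were searched on both strands: E2F sites (TTTCCCGC, TTTGGCGC, TTTCGCGC or TTTGCCGC), CHR elements (the letters TTTGAA or TTCGAA on either strand), CCAAT boxes (spelled ATTGG on the other strand) and the core of ETS sites (CCGGAA, which reads TTCCGG on the other strand).
MCM6: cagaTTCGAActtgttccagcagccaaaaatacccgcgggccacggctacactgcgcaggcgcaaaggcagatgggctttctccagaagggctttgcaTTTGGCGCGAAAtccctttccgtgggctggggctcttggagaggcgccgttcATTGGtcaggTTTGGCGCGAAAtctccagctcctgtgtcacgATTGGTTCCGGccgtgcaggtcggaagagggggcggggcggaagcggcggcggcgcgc
E2F1: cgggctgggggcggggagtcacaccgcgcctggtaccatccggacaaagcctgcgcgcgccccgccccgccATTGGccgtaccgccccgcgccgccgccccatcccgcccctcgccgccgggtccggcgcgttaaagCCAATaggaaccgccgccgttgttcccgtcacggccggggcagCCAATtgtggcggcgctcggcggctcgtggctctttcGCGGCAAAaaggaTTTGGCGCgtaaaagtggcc
CDC20: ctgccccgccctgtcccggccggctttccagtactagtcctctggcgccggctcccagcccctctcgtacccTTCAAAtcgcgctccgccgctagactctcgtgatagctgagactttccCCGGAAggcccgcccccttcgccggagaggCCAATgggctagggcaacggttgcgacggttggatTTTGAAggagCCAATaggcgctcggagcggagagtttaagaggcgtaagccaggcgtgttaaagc
KIF11: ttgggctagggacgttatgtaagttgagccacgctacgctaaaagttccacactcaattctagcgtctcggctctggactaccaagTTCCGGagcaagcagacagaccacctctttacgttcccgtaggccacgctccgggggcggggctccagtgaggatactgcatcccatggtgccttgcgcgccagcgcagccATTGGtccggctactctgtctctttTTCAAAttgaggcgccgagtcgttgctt
MKI67: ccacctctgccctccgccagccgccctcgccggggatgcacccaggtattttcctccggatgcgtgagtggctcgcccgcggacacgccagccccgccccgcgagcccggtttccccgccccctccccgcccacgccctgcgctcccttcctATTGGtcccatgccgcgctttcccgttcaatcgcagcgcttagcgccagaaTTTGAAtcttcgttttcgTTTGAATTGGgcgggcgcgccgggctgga
The MCM6 promoter held 4 matches to an E2F site, in overlapping pairs on opposite strands, and the E2F1 promoter held 2. The MCM6 promoter also held 1 CHR element, 246 bases before the start. The CDC20 and MKI67 promoters held 2 CHR elements and 2 CCAAT boxes each and no E2F site, and the KIF11 promoter held 1 of each of the CHR element, the CCAAT box and the ETS core. In MKI67 the CHR element nearest to the start shares 1 base with a CCAAT box.

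The letters differed between the replication and the mitosis genes. An E2F site was present in 12 of the 20 promoters of the replication genes (60.0%), in 3 of the 20 promoters of the mitosis genes (15.0%) and in 3.31% of all 35116 promoters of the same length. By gene, 12 of 16 replication genes and 2 of 18 mitosis genes held an E2F site in at least 1 promoter. It was 3.99% of all genes and 6.91% of genes expressed at 1 FPKM or more. The CHR element showed the opposite order, with 2 of the 20 replication promoters (10.0%), 14 of the 20 mitosis promoters (70.0%) and 16.4% of all promoters. The CCAAT box was present in 75% of replication promoters, 85% of mitosis promoters and 34.6% of all promoters. Both a CHR element and a CCAAT box stood in 65% of the mitosis promoters and 6.38% of all promoters.

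ETS letters, of the kind that ERG can bind, gave no single order. The core CCGGAA was present in 30.0% of the promoters of the members, in 17.2% of all promoters and in 27.8% of the 13337 promoters of genes expressed at 1 FPKM or more. By gene, 10 of 34 members (29.4%) held it in at least 1 promoter, beside 20.1% of all genes and 36.0% of expressed genes. The longer CCGGAAGT was present in 1 of the 40 member promoters, at KIF23, a kinesin of the central spindle, in 4.14% of all promoters and in 7.77% of those of expressed genes. Base composition differed as well, and its part in these shares was not tested. The median GC content was 68.2% in replication promoters, 62.2% in mitosis promoters and 58.7% in all promoters. It was 64.2% in the promoters of all members, close to the 65% in promoters of expressed genes. A match is a description of letters and does not show a bound site.

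**Figure D1:**
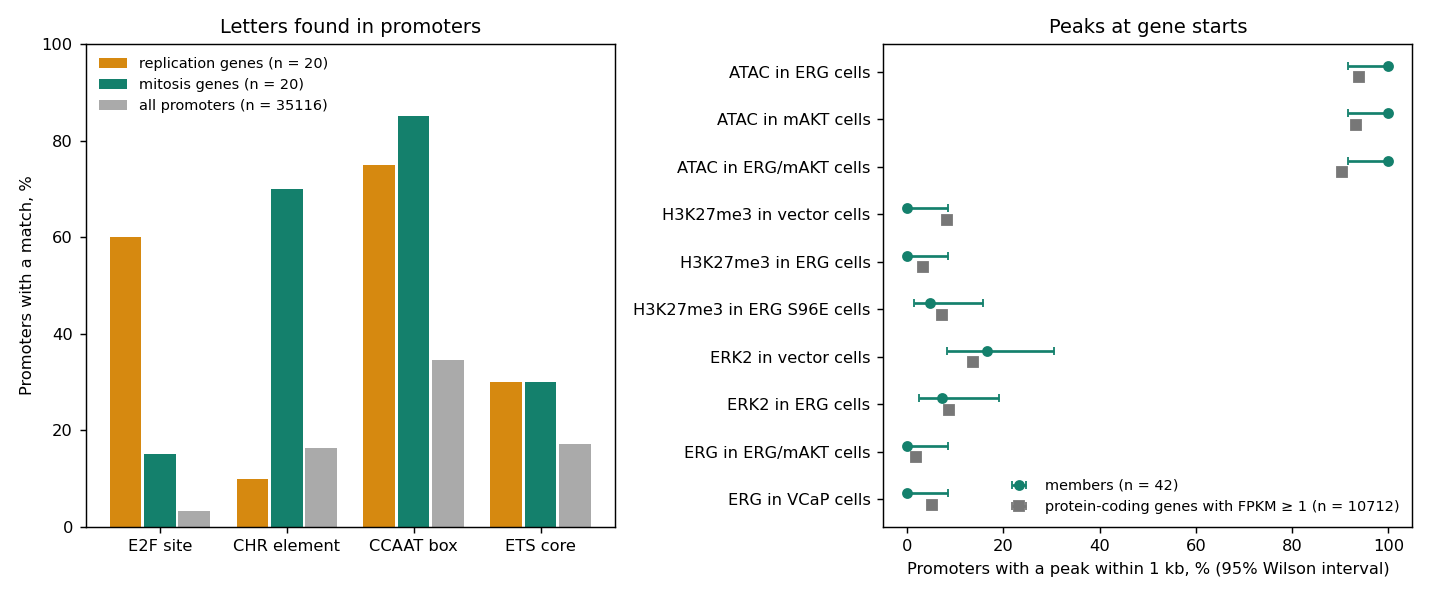
Left, percent of 300-base RefSeq promoters that hold a match to each motif, in the replication genes, the mitosis genes and all promoters; bars start at 0. Right, percent of promoters with a deposited peak within 1 kb of the gene start, for the 42 members (circles) and for protein-coding genes with FPKM of at least 1 (squares), with 95% Wilson intervals. E2F sites stand in 60.0% of replication promoters and CHR elements in 70.0% of mitosis promoters, and the 3 ATAC lists analysed reach 100% of the members.

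The lines were as labelled. ERG was at an FPKM of 0.264 in vector cells, 358 in ERG cells, 0.435 in mAKT cells and 328 in ERG/mAKT cells. AKT1 was at 58.7, 64.2, 156 and 281 in the same order, and thus higher in ERG/mAKT than in mAKT cells (log2 ratio 0.84). The basal keratin KRT5 (1170 to 3642 FPKM) and the simple keratin KRT8 (622 to 1769 FPKM) marked all lines as epithelial. The balance of these markers differed in ERG cells. In ERG over vector, all 4 basal markers were lower, KRT5 by a log2 ratio of -1.42, KRT14 of -2.07, TP63 of -0.74 and ITGA6 of -0.81, and all 4 luminal or simple epithelial markers were higher, KRT8 at 1.51, KRT18 at 1.17, EPCAM at 0.46 and CDH1 at 0.28. In ERG/mAKT over mAKT, KRT14 (-1.09) and ITGA6 (-0.78) were lower, but KRT5 (-0.05) and TP63 (-0.04) were nearly level. KRT8 was higher (0.46), while KRT18 (-0.04), CDH1 (0.06) and EPCAM (-0.01) were nearly level. The part of these marker differences in the ratios of the members was not tested. The luminal secretory marker KLK3 was listed at 0 in all lines, and the fibroblast, endothelial and leukocyte markers other than COL1A1 (1.78 to 2.18 FPKM) and CD68 (24.3 to 28.9 FPKM) were below 1 FPKM in all lines. The scale of the table also bears on every ratio below. The FPKM of all genes summed to 846058 in vector cells, 971508 in mAKT cells, 959573 in ERG/mAKT cells and 1246090 in ERG cells. Rescaling every line to the same sum moved the median log2 ratio of all genes in ERG over vector from -0.01 to -0.49. Members are therefore also described by whether they lie above or below the median of all genes, which depends little on that choice. All ratios are log2 ratios of FPKM + 1, which understate the change of genes with low FPKM.

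Members were expressed well in all lines and, as deposited, differed little between them. Their median FPKM was 51.9 in vector cells, 52.0 in ERG cells, 54.7 in mAKT cells and 46.6 in ERG/mAKT cells. As deposited, the highest line exceeded the lowest by less than 1.5-fold for 39 of the 42 members (92.9%). Of all genes expressed at 1 FPKM or more, 80.3% stayed within that fold. All 42 members and 91.1% of those genes stayed under 2-fold. The median fold was 1.23 in the members and 1.25 in those genes. The 3 members past 1.5-fold were CDK1 (1.67-fold), KIF11 (1.55-fold) and AURKB (1.53-fold). The mAKT line was the highest for 29 members, and the ERG/mAKT line was the lowest for 25. After the median of all genes in each line was set equal, mAKT was still the highest for 29 and ERG/mAKT the lowest for 21. On the rescaled sums, vector was the highest for 31 and ERG the lowest for 38, so the order of the lines depends on the scale, and the comparisons below are read relative to all genes.

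**Figure D2:**
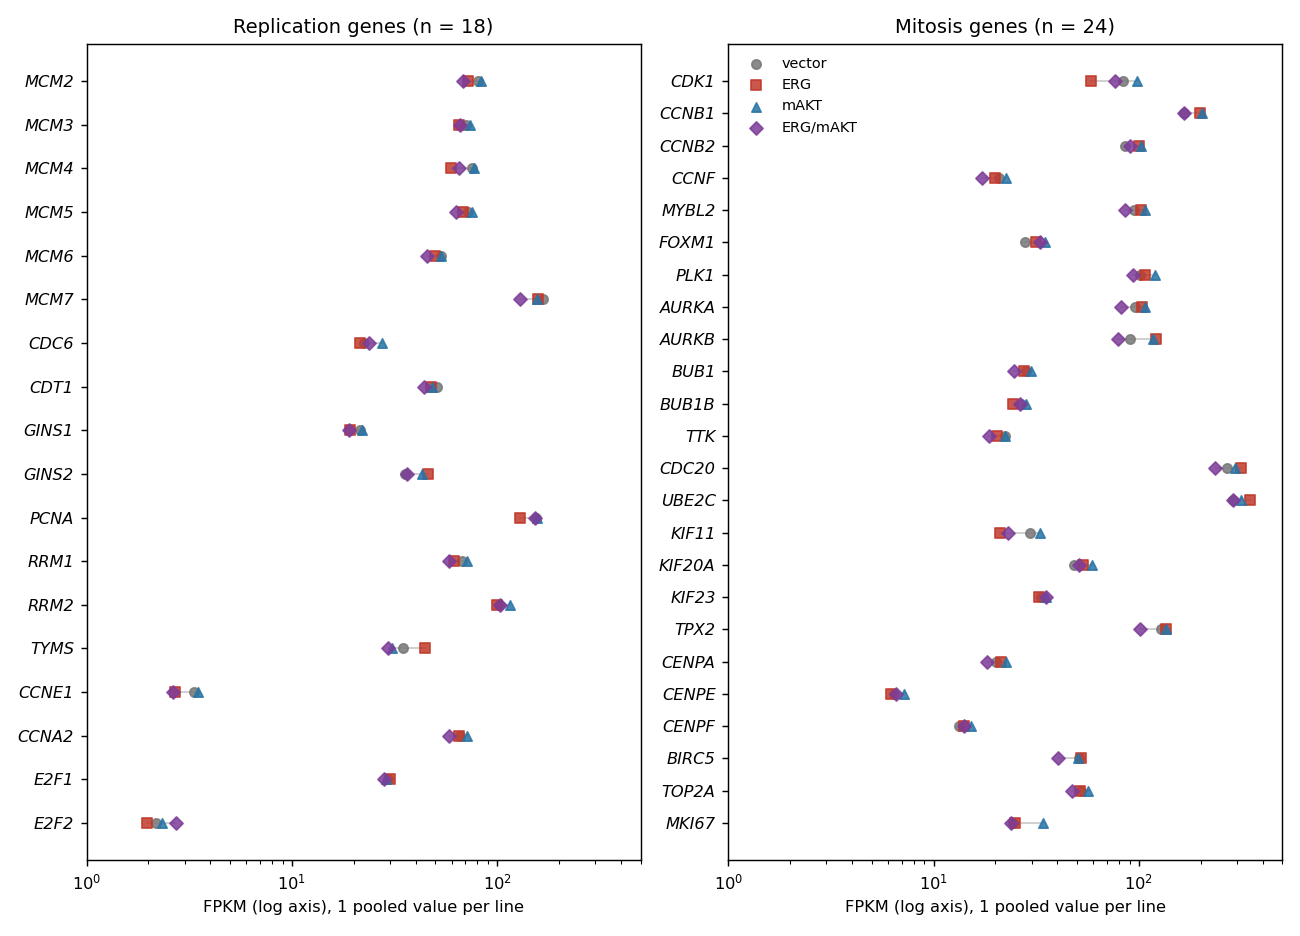
FPKM as deposited of each member in the 4 lines on a log axis, 1 pooled value per line and no error bar. A grey line joins the lowest and the highest line. The symbols of most genes nearly overlap, and the widest spreads are those of CDK1, KIF11 and AURKB.

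The MCM genes encode the 6 subunits of a ring-shaped helicase. MCM7 was the most abundant subunit, at 166 FPKM in vector cells, 158 in ERG cells, 157 in mAKT cells and 129 in ERG/mAKT cells. MCM6 was the least abundant, at 53.3, 49.5, 53.2 and 45.7 FPKM. The ratio of the highest to the lowest subunit was 3.12, 3.20, 2.95 and 2.83 in these lines. The order of the subunits between them was not fixed: MCM4 was above MCM3 (70.5 FPKM) and MCM5 (72.4 FPKM) in vector cells and below both (65.4 and 68.3 FPKM) in ERG cells. MCM2 ranged from 67.9 to 83.6 FPKM. MCM4 had the largest difference in ERG cells, at 75.7 FPKM in vector, 59.8 in ERG, 76.7 in mAKT and 65.3 in ERG/mAKT cells. All 6 subunits were lower in ERG than in vector cells (median log2 ratio -0.10) and all 6 were lower in ERG/mAKT than in mAKT cells (median -0.24).

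Among the genes that license and fire origins, CDC6 and GINS2 varied most. CDC6, the loader of the helicase, was at 22.5 FPKM in vector, 21.6 in ERG, 27.6 in mAKT and 23.7 in ERG/mAKT cells, so only the mAKT line stood apart. GINS2, a subunit of the GINS complex, was at 35.5, 46.1, 43.0 and 36.3 FPKM in the same order. As deposited it was thus higher with either gene alone than with both or neither. On the rescaled sums GINS2 was lower in ERG than in vector cells (log2 ratio -0.18). GINS1, the partner of GINS2, stayed between 19.0 and 21.9 FPKM. The ratio of GINS2 to GINS1 was 1.66 in vector, 2.41 in ERG, 1.96 in mAKT and 1.91 in ERG/mAKT cells.

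Of the genes for the clamp and for nucleotides, TYMS and PCNA differed in ERG cells in opposite directions as deposited. TYMS, thymidylate synthase, was at 34.8 FPKM in vector, 44.4 in ERG, 30.8 in mAKT and 29.5 in ERG/mAKT cells. PCNA was at 155, 129, 156 and 154 FPKM. RRM1 and RRM2, the large and small subunits of ribonucleotide reductase, ranged from 58.1 to 71.0 and from 99.4 to 116 FPKM. The S-phase regulators E2F1 (28.2 to 30.1 FPKM) and CCNA2 (58.1 to 71.5 FPKM) were nearly level. CCNE1 (2.64 to 3.48 FPKM) and E2F2 (1.96 to 2.72 FPKM) were the least expressed members, and the pseudocount shrinks their ratios most.

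The mitotic cyclins and CDK1 did not move together in ERG cells. CDK1 was at 83.6 FPKM in vector, 58.3 in ERG, 97.8 in mAKT and 76.4 in ERG/mAKT cells, the lowest in ERG cells. CCNB1, its cyclin B1 partner, was at 166, 198, 203 and 165 FPKM, as deposited high in both lines with 1 of the genes. CCNB2 was at 85.6, 99.6, 103 and 90.9 FPKM. The ratio of CCNB1 to CCNB2 was 1.94, 1.99, 1.98 and 1.82. FOXM1, an activator of mitosis genes, was at 27.8, 31.7, 35.1 and 32.8 FPKM and thus lowest in vector cells. MYBL2, the B-MYB factor of the same programme, was at 94.7, 102, 107 and 85.6 FPKM.

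Of the other mitotic kinases, AURKB differed most. AURKB, the kinase of the chromosome passenger complex, was at 90.5 FPKM in vector, 121 in ERG, 117 in mAKT and 78.7 in ERG/mAKT cells. AURKA, which acts at spindle poles, was at 95.9, 104, 107 and 81.9 FPKM, and was also lowest in ERG/mAKT cells. PLK1 was at 101, 107, 120 and 93.6 FPKM. The checkpoint kinases BUB1 (24.6 to 29.9 FPKM), BUB1B (24.5 to 28 FPKM) and TTK (18.6 to 22.3 FPKM) stayed close to each other. As deposited, both genes of the anaphase-promoting complex pathway were highest in ERG cells. CDC20, its activator, was at 269, 315, 293 and 235 FPKM. UBE2C, its ubiquitin-conjugating enzyme and the most abundant member, was at 286, 348, 313 and 289 FPKM. After rescaling, both were lower in ERG than in vector cells, CDC20 by a log2 ratio of -0.33 and UBE2C of -0.27.

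Of the kinesins and spindle factors, KIF11 followed CDK1. KIF11, which pushes spindle poles apart, was at 29.4 FPKM in vector, 21.0 in ERG, 33.0 in mAKT and 23.0 in ERG/mAKT cells, so both ERG lines were below both lines without ERG. TPX2, an activator of AURKA, was at 128, 136, 136 and 102 FPKM. KIF20A ranged from 48.2 to 59.1 FPKM and KIF23 from 32.5 to 35.4 FPKM. BIRC5, or survivin, a partner of AURKB, was at 51.2, 52.4, 50.6 and 40.5 FPKM, lowest in ERG/mAKT cells. The kinetochore genes CENPA (18.2 to 22.5 FPKM), CENPE (6.18 to 7.17 FPKM) and CENPF (13.3 to 15.1 FPKM) varied little. MKI67, the proliferation antigen Ki-67, was at 24.2, 24.9, 34.2 and 23.9 FPKM, with mAKT alone above the other lines, and TOP2A, which untangles sister chromatids, was at 52.5, 51.6, 56.3 and 47.4 FPKM.

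Active AKT without ERG went with slightly higher levels of most members. In mAKT over vector, 36 of 42 members were above 0 and the median log2 ratio was 0.10, beside 0.02 for all genes. On the rescaled sums the median of the members was -0.08, beside -0.16 for all genes, so the sign depends on the scale, but 34 of 42 members lay above the median of all genes as deposited and 33 as rescaled. No member reached 1.5-fold, beside 2.19% of all genes at least 1.5-fold higher and 1.89% at least 1.5-fold lower. MKI67 (log2 ratio 0.48) and AURKB (0.37) were at least 1.25-fold higher, 2 of 42, beside 6.33% of all genes, and no member was 1.25-fold lower, beside 4.93%. Below 0 were 6 members, beside 44.8% of all genes: TYMS (-0.17), MCM7 (-0.09), CDT1 (-0.08), E2F1 (-0.03), BIRC5 (-0.02) and MCM6 (-0.004). The mitosis genes had a median of 0.15 with 23 of 24 above 0, and the replication genes one of 0.04 with 13 of 18 above 0.

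ERG without mAKT divided the members. In ERG over vector, the replication genes had a median log2 ratio of -0.10 with 15 of 18 below 0, and the mitosis genes one of 0.07 with 9 of 24 below 0. Over all members the median was -0.03 with 24 of 42 below 0, beside -0.01 and 51.3% for all genes. No member reached 1.5-fold, beside 7.27% of all genes higher and 2.92% lower. AURKB (0.41), GINS2 (0.37) and TYMS (0.34) were at least 1.25-fold higher, 3 of 42, beside 15.2% of all genes. CDK1 (-0.51), KIF11 (-0.47) and MCM4 (-0.33) were at least 1.25-fold lower, 3 of 42, beside 11.3%. These signs and counts rest on the scale as deposited. On the rescaled sums the median was -0.64 in the replication genes and -0.47 in the mitosis genes, beside -0.49 for all genes, and all 42 members were below 0, AURKB at -0.14, GINS2 at -0.18 and TYMS at -0.20.

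With ERG and mAKT together, most members were somewhat lower than in vector cells. Of the 42 members, 31 were below 0 in ERG/mAKT over vector, beside 60% of all genes, and the median log2 ratio was -0.14, beside -0.06. Relative to the median of all genes, 27 were lower. No member reached 1.5-fold, beside 5.41% of all genes higher and 3.34% lower. MCM7 (-0.36), KIF11 (-0.34), BIRC5 (-0.33) and TPX2 (-0.33) were at least 1.25-fold lower, 4 of 42, beside 11.4%, and none was 1.25-fold higher, beside 10.4%. Relative to the median of all genes, none was 1.25-fold lower, beside 8.35%. The highest log2 ratios were those of FOXM1 and E2F2, both at 0.23.

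When mAKT was added to ERG, the members shifted in both directions. In ERG/mAKT over ERG, 29 of 42 were below 0, beside 56.4% of all genes, with a median log2 ratio of -0.11, beside -0.04. On the rescaled sums the sign turned, with a median of 0.25 for members and 0.28 for all genes. As deposited, AURKB (-0.61) was 1.5-fold lower, 1 of 42, beside 6.85% of all genes, and none was 1.5-fold higher, beside 4.21%. After rescaling, CDK1 (0.76) and PCNA (0.62) were at least 1.5-fold higher. Relative to the median of all genes no member was 1.5-fold lower. At least 1.25-fold lower were 7 members, beside 18.4% of all genes: AURKB, TYMS (-0.58), CDC20 (-0.42), TPX2 (-0.42), BIRC5 (-0.37), AURKA (-0.34) and GINS2 (-0.34). Relative to the median of all genes only the first 4 of these were, beside 15.4%. CDK1 (0.39) and E2F2 (0.33) were at least 1.25-fold higher, 2 of 42, beside 10.8%.

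When ERG was added to mAKT, nearly all members were lower by a small amount. AKT1 was also higher in ERG/mAKT than in mAKT cells (log2 ratio 0.84), so this comparison cannot tell ERG and the level of AKT1 apart. In ERG/mAKT over mAKT, 40 of 42 members were below 0, beside 63.6% of all genes, and the exceptions were E2F2 (0.16) and KIF23 (0.01). The median log2 ratio was -0.24, beside -0.07 for all genes, and 37 of 42 were below the median of all genes on either scale. The size was small: no member reached 1.5-fold, beside 4.43% of all genes higher and 2.45% lower. At least 1.25-fold lower were 8 members, all of them mitosis genes, beside 10.8% of all genes: AURKB (-0.57), KIF11 (-0.50), MKI67 (-0.50), TPX2 (-0.41), AURKA (-0.38), CCNF (-0.38), PLK1 (-0.36) and CDK1 (-0.35). Relative to the median of all genes only the first 4 of these were, beside 6.77%. CCNF is an F-box protein that directs the destruction of cell-cycle proteins. No member was 1.25-fold higher, beside 8.54%. The replication genes had a median of -0.21 with 17 of 18 below 0, and the mitosis genes one of -0.30 with 23 of 24 below 0.

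Most members were also lower in the ERG line than in the mAKT line, each with 1 of the genes. In ERG over mAKT, 33 of 42 members were below 0, beside 55.7% of all genes, with a median log2 ratio of -0.13, beside -0.04. As deposited, CDK1 (-0.74) and KIF11 (-0.63) were at least 1.5-fold lower, 2 of 42, beside 3.5% of all genes. None was 1.5-fold higher, beside 7.34%. After rescaling, the median was -0.47, beside -0.35 for all genes. MKI67 (-0.79), MCM4 (-0.71) and CDC6 (-0.68) were then among the members also past 1.5-fold lower. At least 1.25-fold lower were 5 members, beside 12% of all genes: CDK1, KIF11, MKI67 (-0.44), MCM4 (-0.35) and CDC6 (-0.34). Relative to the median of all genes only the first 3 of these were, beside 9.72%. TYMS (0.52) was the 1 member at least 1.25-fold higher, beside 14.1%. The 6 comparisons reuse the same 4 pooled values, so they are not independent of each other.

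**Figure D3:**
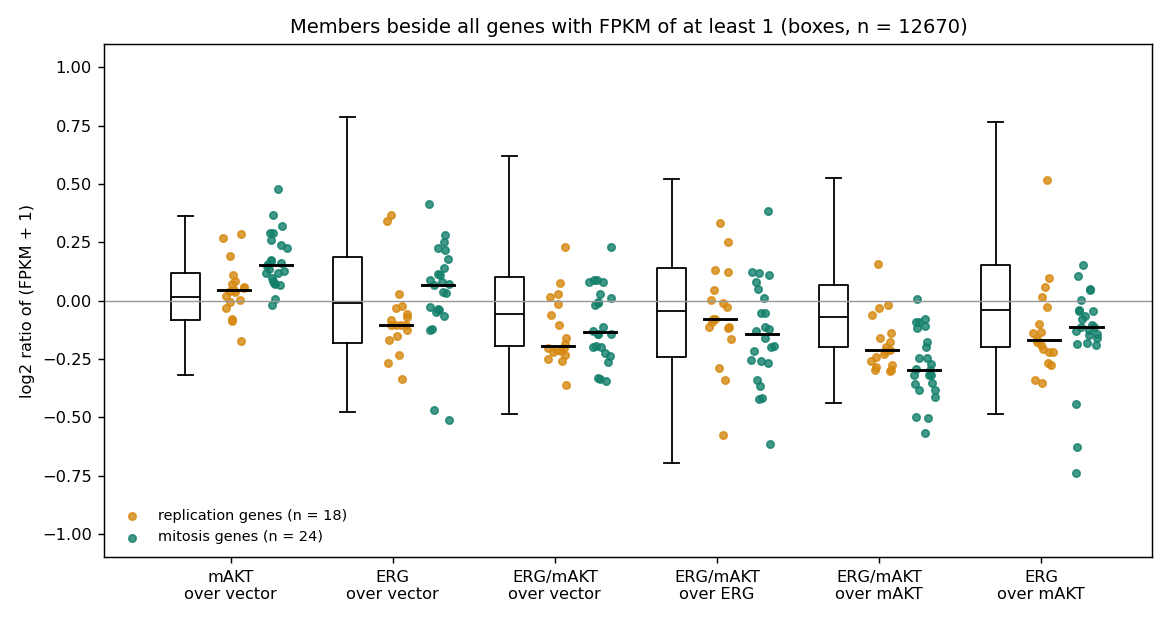
Log2 ratios of FPKM + 1 in the 6 comparisons; boxes give the median, quartiles and 5th to 95th percentiles of all 12670 genes, points are members, and short black lines are the medians of the replication and the mitosis genes. In ERG/mAKT over mAKT, 40 of 42 points lie below 0, and in mAKT over vector 36 of 42 lie above it.

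The ERG difference was compared without and with mAKT, in 2 ratios that share no library. On the FPKM as deposited, the ratio with mAKT was below that without it for 36 of 42 members, beside 58.0% of all genes. The median difference was -0.19 on the log2 scale, beside -0.06. On the rescaled sums the order turned: the median ratio of the members was -0.57 without mAKT and -0.23 with it, beside -0.49 and -0.05. Relative to the median of all genes, the median of the members was -0.02 without mAKT and -0.17 with it as deposited. As rescaled it was -0.08 and -0.17. As deposited, AURKB showed the widest gap, from 0.41 without mAKT to -0.57 with it, and GINS2 went from 0.37 to -0.24. CDC20 (0.22 and -0.32), CCNB1 (0.25 and -0.30) and AURKA (0.11 and -0.38) also had opposite signs. On the rescaled sums none of these genes did. AURKB was then at -0.14 and -0.55, and GINS2 at -0.18 and -0.22. CDC20 was at -0.33 and -0.30, CCNB1 at -0.30 and -0.28, and AURKA at -0.44 and -0.37. As deposited, KIF11 differed alike without and with mAKT (-0.47 and -0.50). On the rescaled sums it did not, at -1.002 without mAKT and -0.487 with it. CDK1 (-0.51 and -0.35), PCNA (-0.26 and -0.02), MCM4 (-0.33 and -0.23) and E2F2 (-0.10 and 0.16) were, with BUB1B and KIF23, the 6 members whose ratio was higher with mAKT as deposited. As deposited, a gap of at least 1.5-fold was seen for 2 of 42 members, AURKB and GINS2, or 4.76%, beside 12.8% of all genes. The ratio with mAKT also carries the difference in AKT1 between its 2 lines. With 1 pooled value per line, the difference between the ratios was not tested.

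**Figure D4:**
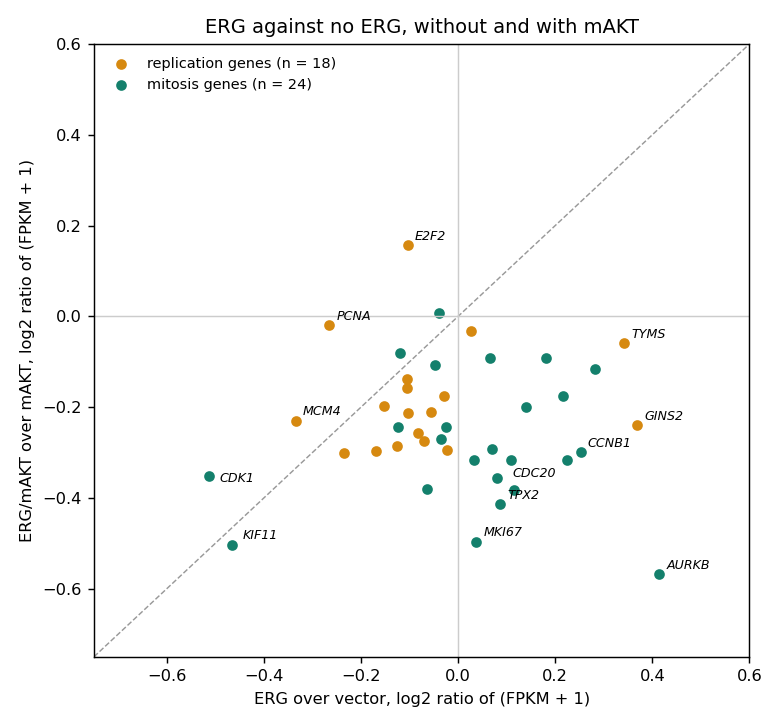
Log2 ratio of ERG over vector (horizontal) against that of ERG/mAKT over mAKT (vertical) for each member; the dashed line marks equal ratios. The ratios are of FPKM as deposited. Most members lie below the dashed line, AURKB farthest, and KIF11 lies close to it.

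The length of the transcript moved with some of these ratios. Over the 42 members, Spearman's rho between canonical transcript length and log2 ratio was -0.34 in ERG over vector, beside -0.29 over the 11197 genes with a length. It was 0.50 in ERG/mAKT over ERG (0.18 over all genes) and -0.47 in ERG over mAKT (-0.19 over all genes). The 9 members shorter than 2000 nt had a median log2 ratio of 0.22 in ERG over vector, and the 2965 genes of that length one of 0.11. AURKB (1243 nt), TYMS (1613 nt) and UBE2C (777 nt) are short and were higher in ERG than in vector cells as deposited. CDK1 (1889 nt) and PCNA (1276 nt) are also short and were lower. After rescaling, AURKB (-0.14), TYMS (-0.20) and UBE2C (-0.27) were lower too. With ERG added to mAKT, rho was 0.13 over the members and 0.02 over all genes, and the medians in the 3 length classes were -0.29, -0.25 and -0.23. Each ratio rests on 1 pooled value per line, which all points of a comparison share, and the part of length in the ratios was not tested.

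**Figure D5:**
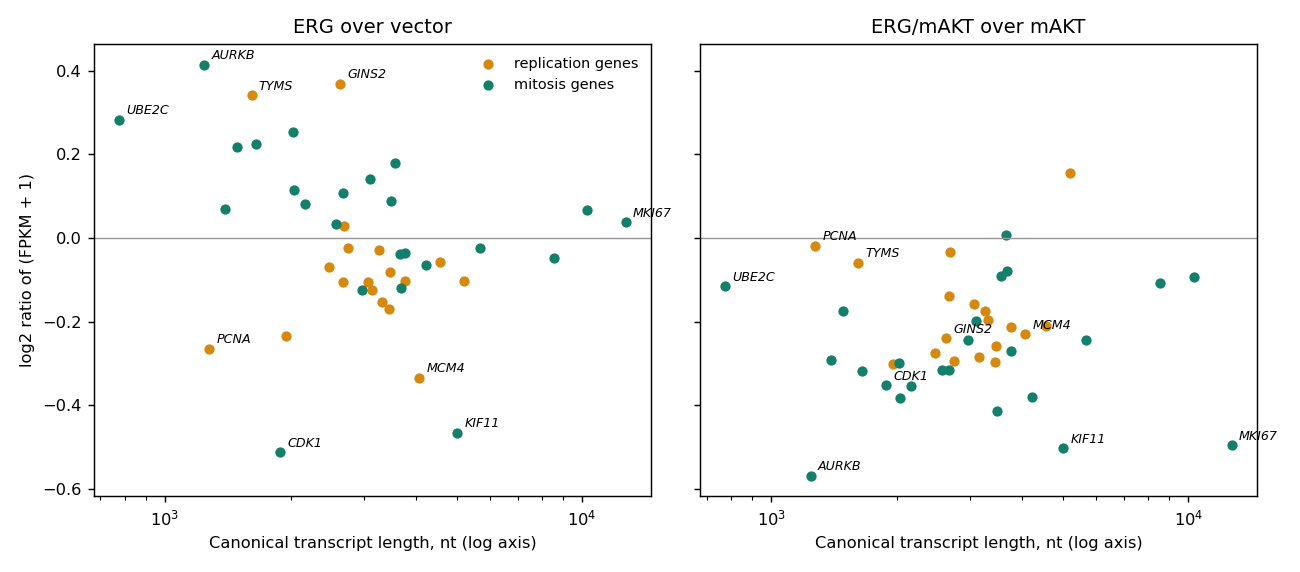
Log2 ratio of FPKM + 1 against canonical transcript length (log axis) for the members, in ERG over vector (left) and in ERG/mAKT over mAKT (right). Short members tend to be higher in the left panel, where rho is -0.34, and nearly all points are below 0 at every length in the right panel.

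A further 104 genes of the same processes, all in the table, were also mostly lower in ERG/mAKT than in mAKT cells. Their values are as deposited, and neither rescaled nor centred values were computed for them. In ERG/mAKT over mAKT, 93 of 104 were below 0, beside 63.6% of all genes, with a median log2 ratio of -0.17, beside -0.07, and 16 were at least 1.25-fold lower, beside 10.8%. The lowest were E2F5 (-0.60), KIF14 (-0.52) and CDC25C (-0.52), and the highest were CENPM (0.20), E2F8 (0.15) and CCNE2 (0.15). E2F5, an E2F factor that works with RB-family proteins, was the 1 gene past 1.5-fold, but at 0.678 to 1.54 FPKM in the 4 lines it was barely expressed. In mAKT over vector, 25 of 104 were below 0, beside 44.8% of all genes, with a median of 0.08, and CKS2 (0.55), NCAPD2 (0.45) and CKS1B (0.37) were highest. CKS2, a small subunit of CDK complexes, was at 456 FPKM in vector, 697 in ERG, 667 in mAKT and 484 in ERG/mAKT cells, the pattern of AURKB and GINS2 as deposited.

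In ERG over vector, 74 of the 104 were below 0, beside 51.3% of all genes, with a median of -0.09. Signs and counts at a fold rest on the deposited scale here. Rescaling moved the median of all genes from -0.01 to -0.49 in ERG over vector and from -0.04 to 0.28 in ERG/mAKT over ERG. CKS2 (0.61) was the 1 gene at least 1.5-fold higher, beside 7.27% of all genes, followed by CCND1 (0.54), cyclin D1, and CKS1B (0.41). WEE1 (-0.62), the kinase that holds CDK1 inactive, was the 1 gene at least 1.5-fold lower, beside 2.92%, at 17.4 FPKM in vector, 10.9 in ERG, 16.8 in mAKT and 14.0 in ERG/mAKT cells, and like CDK1 it was lowest in ERG cells. RBL1 (-0.50) and ZWINT (-0.43) came next. Below 0 were 75 of 104 in ERG/mAKT over vector and 57 of 104 in ERG/mAKT over ERG, beside 60% and 56.4% of all genes, with medians of -0.10 and -0.02. In ERG over mAKT 92 of 104 were below 0, beside 55.7%, with a median of -0.17.

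The 4 CDK inhibitors listed did not share 1 order of the lines. CDKN1A, or p21, was at 73.5 FPKM in vector, 73.2 in ERG, 87.2 in mAKT and 123 in ERG/mAKT cells, while CDKN2A, which encodes p16, was at 528, 514, 439 and 365 FPKM in the same order. CDKN2B, or p15, was at 11.4, 7.83, 10.6 and 11.1 FPKM, and CDKN1B, or p27, at 10.5, 9.98, 12.7 and 12.8 FPKM.

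Chromatin at the starts of the members was open in the 3 lines whose ATAC-seq lists were analysed. ATAC-seq marks DNA that a transposase can reach, and that of vector cells was not analysed here. Each list is from 1 library, so shares carry a 95% Wilson interval for the number of genes only. All 42 members had an ATAC peak within 1 kb of the start of their canonical transcript in ERG, mAKT and ERG/mAKT cells (100%, interval 91.6 to 100%). The shares of the 10712 protein-coding genes expressed at 1 FPKM or more were 93.8%, 93.3% and 90.3%. The median fold enrichment of these peaks was 8.40 in ERG, 6.28 in mAKT and 6.63 in ERG/mAKT cells, at percentiles 72.3, 66.4 and 68.2 of their own lists. MCM3 had peaks of 10.9, 9.76 and 10.5-fold, and CDT1, the weakest, had peaks of 2.69, 2.79 and 2.78-fold. Fold enrichment is not comparable between lists of different libraries, so the members whose RNA differed most are given by percentile of each list. CDK1 had peaks at percentiles 81.7, 81.9 and 92.9, KIF11 at 46.1, 47.0 and 44.7, and AURKB at 65.7, 68.7 and 41.7, lowest in ERG/mAKT cells, which also had its lowest FPKM. With 1 library per list, this was not tested.

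ERG peaks were not found at the starts of the members. In ERG/mAKT cells, 0 of 42 members had an ERG peak within 1 kb (interval 0 to 8.38%), beside 1.90% of protein-coding genes expressed at 1 FPKM or more. In VCaP cells it was also 0 of 42, beside 5.19%. The nearest ERG peaks of ERG/mAKT cells lay 1135 bp from the start of RRM2 and 2410 bp from that of MKI67. AURKB and KIF11 were 77165 and 76323 bp from one. The shares of the other genes lie within the interval of the members in both lists, so a difference was not detectable with this number of genes.

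ERK2, a kinase of the RAS pathway that was also mapped on chromatin, had peaks at few members. In vector cells 7 of 42 had an ERK2 peak within 1 kb (16.7%, interval 8.32 to 30.6%), beside 13.7% of protein-coding genes expressed at 1 FPKM or more, and in ERG cells 3 of 42 did (7.14%, interval 2.46 to 19.0%), beside 8.71%. CDC20 and KIF11 had one in both lines, and PCNA had one in ERG cells near its canonical start, which lies within the gene, 6664 bp from the RefSeq start. KIF11 had the strongest, at chr10:94351897-94352129 with 5.33-fold enrichment in vector cells and at chr10:94352629-94352925 with 5.63-fold in ERG cells. The second covers all of the KIF11 sequence given above, and these were the only ERK2 peaks of members with a −log10 q-value of at least 2 (2.45 and 2.56). The lists are of unequal size, 41276 and 5721 peaks, so a peak in 1 list and not in the other does not show a difference.

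Peaks of the repressive mark H3K27me3, set by the Polycomb complex, were listed at few of these starts. No member had an H3K27me3 peak within 1 kb in vector or in ERG cells (0 of 42, interval 0 to 8.38%), beside 8.32% and 3.35% of protein-coding genes expressed at 1 FPKM or more, shares that lie within the interval of the members, and 25.2% and 17.8% of all protein-coding genes. In cells with ERG S96E, 2 of 42 did, CCNE1 and GINS2 (4.76%, interval 1.32 to 15.8%), beside 7.28%. Their −log10 q-values were 0.56 and 0.157, and both peak centres lay more than 1 kb from the start.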

How the data were processed

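RNA-seq values are FPKM that the authors deposited, made with TopHat2 and Cuffdiff on hg19, 1 value per line pooled over 3 libraries and 0 columns of single samples. The deposited table also holds the authors' fold changes, test scores, p-values and q-values, which were not used. The locus, gene and FPKM columns gave 26255 genes. Low values were filtered at an FPKM of 1 in any line, ratios used a pseudocount of 1, and counts used 1.5-fold and 1.25-fold. No test, SD or interval of the spread between libraries could be computed from pooled values, and the depth of these libraries is unknown.

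Peak lists are MACS2 output (2.1.2 or 2.2.7.1 per the file headers) that the authors deposited, with a fold enrichment ratio over background and −log10 p-values and −log10 q-values for each peak, from reads aligned to hg19 with blacklisted regions removed with bedtools. Each list holds 1 library, and ChIP DNA was pooled from 3 experiments. Headers record 8393459 to 35688481 reads or fragments where they give them. A peak counted for a gene when at least 1 bp lay within 1 kb of the start of its canonical transcript (GENCODE 44 on GRCh37, the same assembly as hg19). For PCNA that start lies 6664 bp from the RefSeq start. Intervals are 95% Wilson intervals and cover the number of genes only. The lists of the VCaP input and of the LY294002-treated VCaP ERG ChIP do not match their labels and were left out, and ATAC of vector cells was not analysed here.

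Promoters are RefSeq sequences (GRCh38.p14) placed on GRCh37 by exact match. The 42 members, 104 further genes and 24 markers were listed with earlier results of these data known. All members are named, and further genes of the same processes only among the 3 highest or lowest of a comparison. Counting, overlap and motif steps were tested on simulated data. Alternatives were the pseudocount, the filter, centring, the fold, the window, the q-value limit and the overlap, and those added later were the 1.25-fold limit (also relative to the median of all genes), the limit of 0, rescaled sums, another gene start and the members without CDK1 and KIF11. The software was Python 3.11.15, pandas 2.3.3, numpy 2.4.6, scipy 1.17.1, statsmodels 0.14.6, matplotlib 3.10.9 and samtools 1.23.1.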

Additional observations from a re-analysis of the deposited data

How the results depend on the processing

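No paired analysis was possible because each line's FPKM is 1 value pooled over its 3 libraries, and for the same reason no library could be left out. Each peak list holds 1 library. Of 27 planned settings tried on the medians, 27 stayed within 0.1 on the log2 scale. Of 18 added later, 13 did, and those that did not were all rescaled sums. That limit is wide beside medians such as 0.10 in mAKT over vector and -0.03 in ERG over vector, so it says little about them. Centring on all genes moved the median from -0.14 to -0.09 in ERG/mAKT over vector and from -0.11 to -0.07 in ERG/mAKT over ERG. Of 60 planned settings tried on the member counts, 56 stayed within 1.5 times, and of 28 added later, 5 did. Of the 12 counts at 1.5-fold, 10 were 0, and a stricter fold can only lower a count, so this says little about stability. For ERG/mAKT over ERG, the count of members at least 1.5-fold lower was 2 with a pseudocount of 0.1, 0 after centring on all genes and 0 at 2-fold. In ERG over mAKT it was 0 at 2-fold. The added alternatives of counts and medians were chosen after seeing the data. With 1.25-fold, members higher and lower were 2 and 0 in mAKT over vector, 3 and 3 in ERG over vector, 0 and 4 in ERG/mAKT over vector, 2 and 7 in ERG/mAKT over ERG, 0 and 8 in ERG/mAKT over mAKT, and 1 and 5 in ERG over mAKT. With any difference they were 36 and 6, 18 and 24, 11 and 31, 13 and 29, 2 and 40, and 9 and 33 in the same order. Centred on all genes, 0, 4, 4 and 3 members were 1.25-fold lower in ERG/mAKT over vector, ERG/mAKT over ERG, ERG/mAKT over mAKT and ERG over mAKT. After rescaling every line to a sum of 1000000, the medians of the members were -0.083 in mAKT over vector, -0.57 in ERG over vector, -0.32 in ERG/mAKT over vector, 0.25 in ERG/mAKT over ERG and -0.47 in ERG over mAKT. The medians of all genes moved with them, to -0.16, -0.49, -0.22, 0.28 and -0.35. Rescaling left ERG/mAKT over mAKT at -0.23 beside -0.05, and medians minus the all-gene median kept their sign in all 6 comparisons.

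All 15 alternatives of the ATAC shares stayed at 100%. H3K27me3 in vector cells reached 47.6% of members within 5 kb, beside 51.3% of protein-coding genes expressed at 1 FPKM or more. In ERG S96E cells it was 0% within 250 bp, with −log10 q of at least 2, and with the peak centre inside the window. ERK2 in vector cells was at 2.38% within 250 bp, 42.9% within 5 kb (32.6% of those genes) and 2.38% with −log10 q of at least 2. ERK2 in ERG cells was at 2.38% with that limit, and at 2.38% with the 5′ end of the whole gene as its start, an alternative added later. The cause of these moves was not tested, beyond the fewer peaks or the wider window that each setting brings. Peak strength limits these shares: 306 of 41276 ERK2 peaks in vector cells, 29 of 492265 H3K27me3 peaks in vector cells and 450 of 9113 ERG peaks in ERG/mAKT cells have a −log10 q of at least 2.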
